A study of Homo sapiens with 4 samples.

Results

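The genes of the integrated stress response around *ATF4* and of the endoplasmic reticulum (ER) stress response were followed in 2 tumor cell lines without and with chemotherapy. They were chosen by name, with earlier results of these data known. The list holds 36 genes of 18449 gene symbols in the count table, with *EIF4EBP1* included as a target of *ATF4*. All 36 genes were measured, and the lowest count of any of them in a library was 56. By role, the genes were divided into *ATF4* and its regulatory targets (9 genes), enzymes of serine and amino acid synthesis (8), amino acid transporters (3), sensors of the unfolded protein response (UPR) with *XBP1* (4), ER-associated degradation (ERAD, 4), and ER chaperones with their folding enzymes (8). The first 3 groups, which hold 20 genes, are called the *ATF4* arm, and ERAD and ER chaperones, which hold 12 genes, the ER folding arm.

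BT-16 and CHLA-266 are established, patient-derived lines of atypical teratoid/rhabdoid tumor (AT/RT), a malignant brain tumor of young children, and are both assigned to the molecular group MYC. Each line was grown with fetal bovine serum, L-glutamine, insulin, transferrin, and selenous acid, and gave 1 untreated library and 1 library of cells that had received 1 µM doxorubicin, 5 µM etoposide, and 1 µM vincristine on consecutive days. Doxorubicin and etoposide block topoisomerase II, and vincristine blocks the assembly of microtubules. Most treated cells died, and according to the methods the library holds the cells that grew again weeks later. The comparison of treated with untreated cells therefore had 2 libraries on each side, with the cell lines as replicates and 1 culture for each line and condition, and all libraries carry the same batch label.

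When unfolded proteins gather in the ER, the kinase PERK (encoded by *EIF2AK3*) phosphorylates the initiation factor eIF2α, which lowers general translation and raises the translation of *ATF4*. The ATF4 protein binds CCAAT/enhancer-binding protein-activating transcription factor response elements (CARE) and switches on genes of amino acid synthesis, amino acid import, and stress signaling, also when amino acids are scarce or heme is lacking. IRE1α (*ERN1*), which splices *XBP1* mRNA, and ATF6 form the other branches of the UPR, and the factors XBP1 and ATF6 act through ER stress response elements (ERSE) and UPR elements (UPRE) on chaperones and on ERAD, the route by which misfolded proteins leave the ER for the proteasome. Since ATF4 and eIF2α are controlled at the level of protein, their activity is not measured by counts of mRNA.

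Promoters of 300 bases, from 250 bases before to 50 after the annotated start site, were at hand for 32 of the 36 genes (RefSeq, GRCh38.p14), without *EIF4EBP1*, *PSPH*, *SHMT2*, and *PYCR1*. Both strands were searched for CARE (TGATGNAA), ERSE (CCAAT, a gap of 9 bases, and CCACG), ERSE-II (ATTGG, a gap of 1 base, and CCACG), and UPRE (TGACGTGG). The windows that carry a match to CARE upstream of the start site are shown first, since CARE is the element of the *ATF4* arm. Each sequence is printed 5′ to 3′ on the strand of its gene, and capitals mark the match, which reads as the reverse complement where it lies on the other strand.
*ASNS*, 68 bases upstream, chr7:97872454-97872491, minus strand: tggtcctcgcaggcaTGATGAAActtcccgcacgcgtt
*CHAC1*, 209 bases upstream, chr15:40953247-40953284, plus strand: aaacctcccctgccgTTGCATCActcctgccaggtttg
*HERPUD1*, 176 bases upstream, chr16:56931951-56931988, plus strand: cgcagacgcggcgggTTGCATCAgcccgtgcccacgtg

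Matches to ERSE were found in 4 ER chaperones and in *XBP1*, and are shown as the element by which ATF6 acts on chaperones.
*CALR*, 225 bases upstream, chr19:12938369-12938417, plus strand: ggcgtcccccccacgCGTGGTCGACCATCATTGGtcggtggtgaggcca
*CANX*, 151 bases upstream of 1 of its start sites, chr5:179698763-179698811, plus strand: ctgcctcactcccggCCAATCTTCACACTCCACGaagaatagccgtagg
*CRELD2*, 80 bases upstream, chr22:49918539-49918587, plus strand: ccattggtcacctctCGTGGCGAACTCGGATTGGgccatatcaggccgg
*PDIA6*, 86 bases upstream, chr2:10812838-10812886, minus strand: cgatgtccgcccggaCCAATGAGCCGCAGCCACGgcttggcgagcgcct
*XBP1*, 52 bases upstream, chr22:28800588-28800636, minus strand: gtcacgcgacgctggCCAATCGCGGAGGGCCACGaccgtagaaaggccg

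The more compact ERSE-II, in which the CCAAT box and CCACG lie 1 base apart, was found in *HERPUD1*, in *SDF2L1*, and at 2 positions in *HYOU1*, the first of which overlaps a match to UPRE that begins 188 bases upstream.
*HERPUD1*, 117 bases upstream, chr16:56932010-56932050, plus strand: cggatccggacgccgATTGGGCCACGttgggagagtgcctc
*SDF2L1*, 188 bases upstream, chr22:21642099-21642139, plus strand: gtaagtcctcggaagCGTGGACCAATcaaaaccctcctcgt
*HYOU1*, 185 bases upstream, chr11:119057365-119057405, minus strand: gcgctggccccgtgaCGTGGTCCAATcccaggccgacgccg
*HYOU1*, 79 bases upstream, chr11:119057259-119057299, minus strand: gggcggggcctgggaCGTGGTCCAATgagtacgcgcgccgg

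In all, ERSE or ERSE-II was found in 8 of 32 genes with a promoter, among them 6 of 8 ER chaperones, and in 0.161% of 27305 genes with a promoter of that length (0.0916% for ERSE and 0.0696% for ERSE-II), where a gene counts if any of its promoters holds the match. Per promoter, the share was 0.131% of 35116. CARE was found in 5 of 32 genes and in 4.46% of all genes, with the matches of *SLC3A2* and *SLC7A1* behind the start site. UPRE was found in *ALDH18A1* and *HYOU1* and in 0.927% of all genes. A match describes the letters of the window and shows neither binding nor use of the site.

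**Figure D1:**
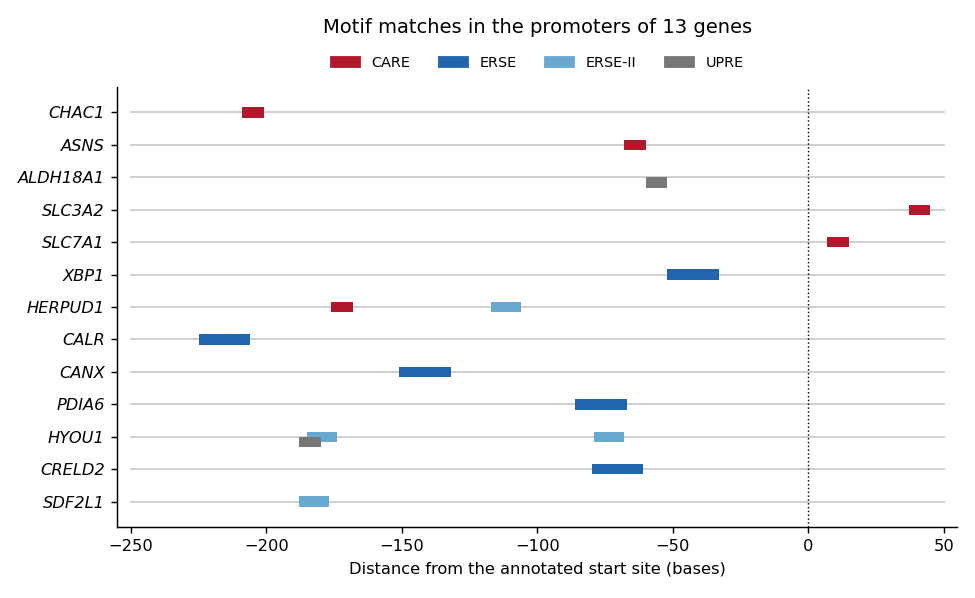
Positions of the matches in the 13 genes that hold at least 1, in bases from the annotated start site (dotted line), with 1 row for each gene and 1 color for each element. *XBP1* and 6 ER chaperones hold ERSE or ERSE-II (*HYOU1* also UPRE), and *CHAC1*, *ASNS*, *SLC3A2*, and *SLC7A1* hold only CARE.

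The libraries held 49849257 to 75087193 counts, and the treated library was the smaller in each cell line but had more detected genes (17114 and 17815 against 15464 and 16079). Counts per kilobase of exon of 335 olfactory receptor genes, which are silent in most tissues, had a 95th percentile of 4.17 and 4.38 in the untreated and 31.3 and 23.6 in the treated libraries. All 36 genes lay above this percentile in every library, except for *ASNS* in both treated libraries. All 5 markers of dividing cells (*MKI67*, *TOP2A*, *CCNB1*, *BUB1*, and *AURKA*) fell, with a summed level of 3259 and 3267 CPM (counts scaled to the library size after TMM normalization, the trimmed mean of log ratios between libraries) before and 102.4 and 91.9 CPM after treatment. *MYC* had 187 and 207 CPM in untreated and 118 and 144 CPM in treated cells, and *SMARCB1*, which is inactivated in AT/RT, had 827 to 1394 counts, which do not show whether its transcript was intact. Of 5 markers of macrophages, *AIF1* (0 counts in both untreated libraries, 27 and 55 in the treated ones) and *CD163* rose, with a sum of the 5 of 3.27 to 6.47 CPM before and 5.81 to 8.94 CPM after treatment. In counts per kilobase of exon, *CD163* lay below the percentile of olfactory receptors in both treated libraries, and *AIF1* did so in that of BT-16. Neither passed without the treated CHLA-266 library (adjusted *p* = 0.092 and 0.101 in edgeR), and *CD163* did not without the untreated CHLA-266 library (adjusted *p* = 0.0714 in edgeR). Of 5 markers of fibroblasts, *COL1A2* fell, *COL1A1* (log2 fold change 0.92), *PDGFRB* (1.84), *DCN* (0.88), and *LUM* (-0.72, 0 counts in both CHLA-266 libraries) did not pass, *COL1A1* passed as higher with the cell line as a block (0.93, adjusted *p* = 0.0132 in edgeR), and the sum was 10.5 to 14.2 CPM before and 8.37 to 18.7 CPM after treatment. The part of this higher level of silent genes, of the fall of dividing cells, and of other cells in the results that follow was not tested, and fewer cells of a type and less RNA per cell cannot be told apart in these bulk samples.

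In the fit across all genes (edgeR, adjusted *p* value under 0.05), 3 of the 36 genes were upregulated, 17 were downregulated, and 16 did not pass, after treatment, while 35.2% of all 18066 genes tested passed, 16.1% higher and 19.1% lower. The upregulated genes were *DDIT3*, *CHAC1*, and *PPP1R15A*, which all belong to the regulatory targets of *ATF4*. Among the downregulated genes were 5 of 8 enzymes of serine and amino acid synthesis, 2 of 3 amino acid transporters, and 7 of 8 ER chaperones. The median log2 fold change was -0.39 in the *ATF4* arm (3 higher and 9 lower of 20) and -1.15 in the ER folding arm (8 lower of 12), against 0.24 over all genes tested. The difference between the arms was not tested.

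Differences in scaling bear on these counts, since the median of all genes was 0.24 with TMM scaling, 0.31 with the size factors of DESeq2, 0.46 with no factor beyond the total, and 0.59 with the upper quartile. With upper-quartile scaling, 6 of the 36 genes were higher and 16 lower (27.3% of the calls higher, against 3 of 20), and *SLC3A2*, *ERN1*, and *HERPUD1* were the added genes among the higher ones. Over all genes tested, 69.7% of the calls were higher with that scaling, against 45.7% with TMM. The cell line as a block gave 4 higher and 19 lower of 36, while 41.6% of all genes passed (17.9% higher and 23.7% lower). The TMM-normalized levels of treated and untreated libraries did not overlap in 29 of the 36 genes (80.6%), against 72.6% of all genes tested, of which 35.2% passed the test. An exact permutation test of 2 against 2 libraries cannot give a *p* value below 0.333.

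**Figure D2:**
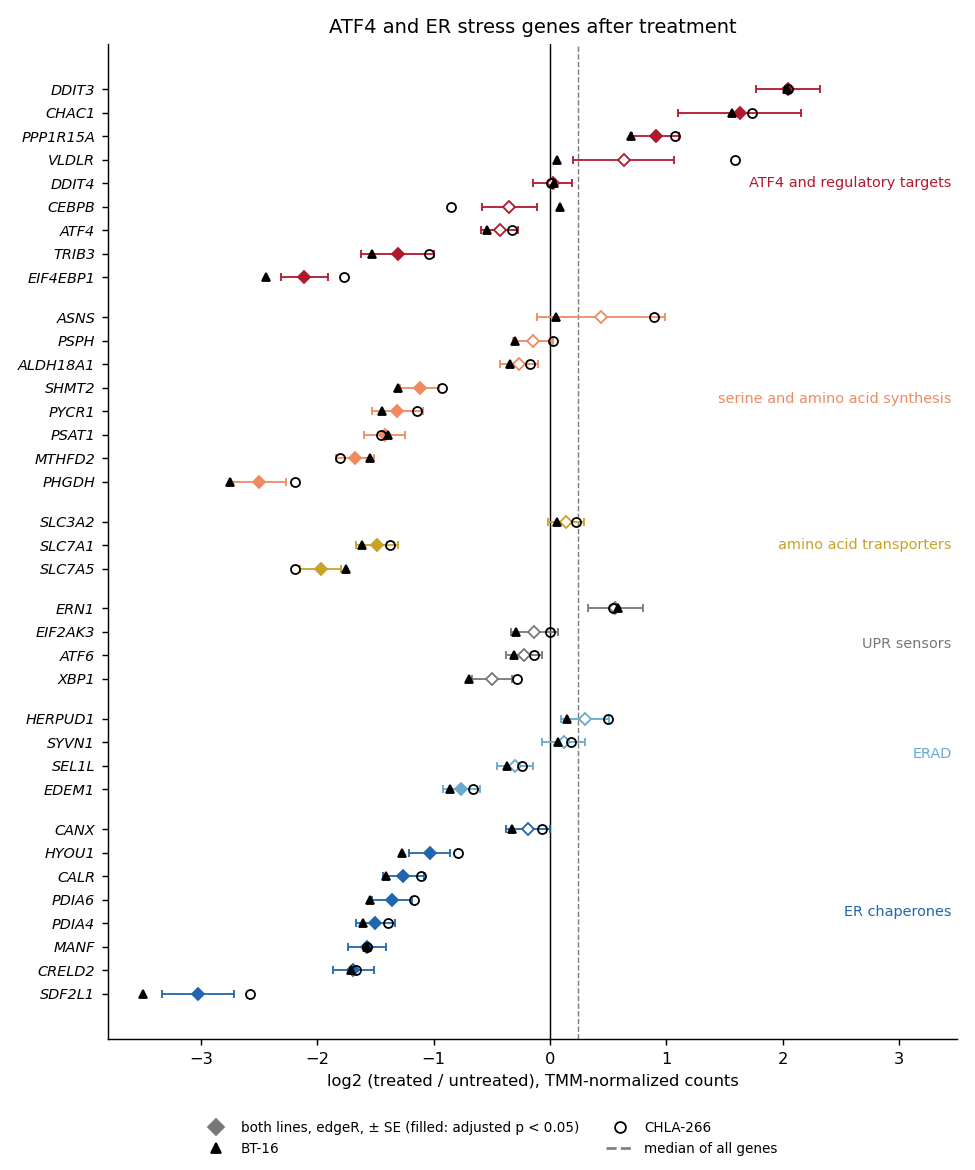
Log2 ratio of treated to untreated cells for all 36 genes by role. Diamonds are estimates of edgeR over both cell lines with the standard error (filled: adjusted *p* value under 0.05), triangles are BT-16, circles are CHLA-266, and the dashed line is the median of all genes, 0.24. *DDIT3*, *CHAC1*, and *PPP1R15A* lie to the right of it with filled diamonds, and 7 of 8 ER chaperones lie to the left of -1.

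Of the regulatory group, *ATF4* itself had a TMM-normalized level of 285 CPM in untreated and 195 CPM in treated BT-16 cells and of 273 and 218 CPM in CHLA-266 cells. Both treated libraries were below both untreated ones. The log2 fold change was -0.43 (SE 0.16), which did not pass without the block (adjusted *p* = 0.0632 in edgeR) and passed with it (-0.44, adjusted *p* = 0.017 in edgeR). DESeq2 called *ATF4* lower both without the block (-0.37, adjusted *p* = 0.0443 in DESeq2) and with it (-0.37, adjusted *p* = 0.0343 in DESeq2). The size of the fall rests on the scaling, with -0.21 for library totals (adjusted *p* = 0.273 in edgeR) and -0.087 for upper-quartile scaling (adjusted *p* = 0.658 in edgeR). Processed copies of *ATF4* in the genome could share its reads, which the deposited counts do not resolve.

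*DDIT3* encodes CHOP, a transcription factor that promotes cell death under lasting ER stress. Its counts rose from 294 to 1012 in BT-16 and from 322 to 1125 in CHLA-266, with no overlap between the groups. The increase was 4.12-fold (log2 fold change 2.04, SE 0.27, adjusted *p* = 0.000902 in edgeR) and was nearly the same in each line, with log2 ratios of 2.04 and 2.05. Of the exon length of *DDIT3*, 27.2% overlaps exons of *MARS1* on the opposite strand, and the counting is not stated to use strand. *MARS1*, a methionyl-tRNA synthetase, fell by 0.67 on the log2 scale (adjusted *p* = 0.0134 in edgeR), but did not pass with upper-quartile scaling (adjusted *p* = 0.134 in edgeR).

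*PPP1R15A* encodes GADD34, which guides a phosphatase to eIF2α and thereby ends the translational block. It had 80.3 and 130 CPM before and after treatment in BT-16 and 89.0 and 187 CPM in CHLA-266, so that both treated libraries were above both untreated ones (log2 fold change 0.91, SE 0.20, adjusted *p* = 0.00975 in edgeR). *CHAC1*, which degrades glutathione and holds the CARE match shown above, was counted 112 times in untreated and 278 times in treated BT-16 cells, against 56 and 158 times in CHLA-266. The log2 fold change of 1.63 (SE 0.53) passed with an adjusted *p* of 0.0412 in edgeR but not without the treated BT-16 library (1.26, adjusted *p* = 0.181 in edgeR) or without the untreated CHLA-266 library (1.27, adjusted *p* = 0.137 in edgeR). It was the least abundant of the upregulated genes.

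*TRIB3* and *EIF4EBP1*, 2 further targets of *ATF4*, were downregulated. *TRIB3*, a pseudokinase that is induced by *ATF4* and CHOP and restrains them in turn, had 13.5 and 4.67 CPM before and after treatment in BT-16 and 9.45 and 4.58 CPM in CHLA-266. Its levels thus fell to nearly the same value in both lines (log2 fold change -1.31, SE 0.31, adjusted *p* = 0.0135 in edgeR), although it did not pass without the untreated BT-16 library (-1.03, adjusted *p* = 0.0797 in edgeR). *EIF4EBP1*, which encodes a repressor of cap-dependent translation, was reduced 4.32-fold, with log2 ratios of -2.44 in BT-16 and -1.77 in CHLA-266. *DDIT3* and *TRIB3* hence moved in opposite directions in each line.

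The other 3 genes of this group did not pass. *DDIT4*, an inhibitor of mTORC1, had 63.6 and 65.0 CPM in BT-16 and 55.1 and 55.4 CPM in CHLA-266 (log2 fold change 0.02, SE 0.17). *CEBPB*, a partner of CHOP, had log2 ratios of opposite sign in the 2 lines, with 41.2 and 43.7 CPM in BT-16 and 50.1 and 27.8 CPM in CHLA-266. *VLDLR*, a lipoprotein receptor and target of *ATF4*, had 13.8 and 14.4 CPM in BT-16 but 4.81 and 14.5 CPM in CHLA-266. The untreated CHLA-266 library alone was low, and the log2 fold change of 0.63 (adjusted *p* = 0.274 in edgeR) passed with the block (0.82, adjusted *p* = 0.0253 in edgeR) and without the untreated BT-16 library (1.59, adjusted *p* = 0.0129 in edgeR). This group as a whole had 3 genes higher and 2 lower of 9, with a median log2 fold change of 0.02.

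**Figure D3:**
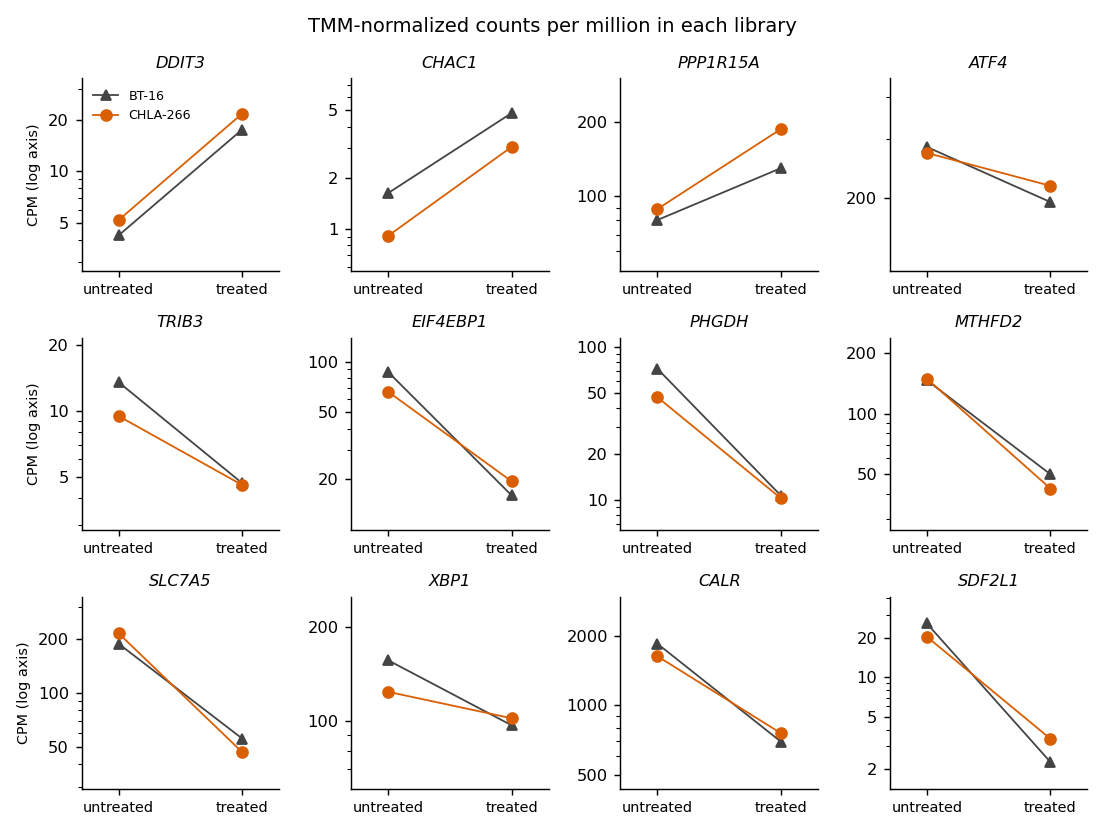
TMM-normalized CPM (log axes, a range of its own in each panel) of 12 genes in the 4 libraries, with lines joining the untreated and the treated library of BT-16 (triangles) and of CHLA-266 (circles). The lines of *DDIT3*, *CHAC1*, and *PPP1R15A* rise in both cell lines, and the other 9 genes have the lower value in the treated library of both, with the widest gaps in *SDF2L1* and *PHGDH*.

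The serine pathway makes serine from an intermediate of glycolysis by *PHGDH*, *PSAT1*, and *PSPH*. *PHGDH*, its first enzyme, had 71.8 and 10.7 CPM before and after treatment in BT-16 and 46.9 and 10.2 CPM in CHLA-266. It thereby fell 5.68-fold (log2 fold change -2.50, SE 0.24, adjusted *p* = 0.000161 in edgeR). *PSAT1*, the second enzyme, had 86.6 and 32.9 CPM in BT-16 and 74.4 and 27.1 CPM in CHLA-266 (log2 fold change -1.42, SE 0.18, adjusted *p* = 0.000692 in edgeR). The last step did not follow, as *PSPH* had 151 and 123 CPM in BT-16 and 121 and 123 CPM in CHLA-266 (log2 fold change -0.15, SE 0.17, adjusted *p* = 0.502 in edgeR). Copies of *PSPH* in the genome could share its reads.

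The mitochondrial enzymes that use serine for folate metabolism, *SHMT2* and *MTHFD2*, were both reduced. *SHMT2*, which splits serine into glycine and a carbon unit, had 139 and 56.2 CPM in BT-16 and 117 and 61.2 CPM in CHLA-266 (log2 fold change -1.12, SE 0.17, adjusted *p* = 0.00155 in edgeR). *MTHFD2*, which oxidizes that unit, had 146 and 50.01 CPM in BT-16 and 149 and 42.5 CPM in CHLA-266 (log2 fold change -1.67, SE 0.16, adjusted *p* = 0.000188 in edgeR). *MTHFD2* was at nearly the same level in both untreated lines. *PYCR1*, the last enzyme of proline synthesis, fell as well, by 1.31 on the log2 scale (SE 0.22, adjusted *p* = 0.00282 in edgeR), with 14.1% of its exon length shared with *MYADML2* on the same strand. *ALDH18A1*, the first enzyme of proline synthesis, had a log2 fold change of -0.27 (SE 0.16) and did not pass.

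*ASNS*, asparagine synthetase, is a classical gene of the CARE element and carries the match shown above. It was the lowest of the 36 genes per exon length, with raw counts of 127 (untreated) and 110 (treated) for BT-16 against 72 and 113 for CHLA-266. After normalization these were 1.84 and 1.90 CPM in BT-16 and 1.17 and 2.17 CPM in CHLA-266. Its log2 fold change of 0.44 (SE 0.55) did not pass. In both treated libraries its counts per kilobase lay below the 95th percentile of olfactory receptors. The log2 ratio was 0.05 in BT-16 (95% interval for counting error -0.33 to 0.43) and 0.89 in CHLA-266 (0.46 to 1.34). A change of *ASNS* is thus not settled at this level. In the annotation, 49.3% of its exon length also belongs to a long non-coding RNA on the same strand, and the counting of reads in such a stretch is not stated.

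Of the transporters, *SLC7A5* and *SLC3A2* form a heterodimer that imports leucine and other large neutral amino acids. *SLC7A5*, its transporting chain, had 188 and 55.7 CPM in BT-16 and 214 and 46.8 CPM in CHLA-266 (log2 fold change -1.97, SE 0.18, adjusted *p* = 0.000106 in edgeR). *SLC3A2*, its chaperone chain, which also pairs with other transporters, had 219 and 228 CPM in BT-16 and 206 and 240 CPM in CHLA-266 (log2 fold change 0.14, SE 0.16). The chains thus differed, as *SLC7A5* was reduced 3.92-fold and *SLC3A2* did not pass. *SLC7A1*, which imports arginine and lysine, was reduced 2.80-fold, from 98.4 to 32.1 CPM in BT-16 and from 107 to 41.1 CPM in CHLA-266 (adjusted *p* = 0.00055 in edgeR).

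None of the 4 UPR sensors passed, although 2 of them had an unadjusted *p* value under 0.05 in edgeR, DESeq2 without the block called *ERN1* higher and *XBP1* lower, DESeq2 with the block called *XBP1* lower but not *ERN1* (adjusted *p* = 0.0911), and limma called *ERN1* higher. *ERN1* had 10.3 and 15.4 CPM in BT-16 and 11.2 and 16.2 CPM in CHLA-266, so both treated libraries were above both untreated ones (log2 fold change 0.56, SE 0.23, adjusted *p* = 0.093 in edgeR). *XBP1*, which holds an ERSE match, had 156 and 96.7 CPM in BT-16 and 124 and 102 CPM in CHLA-266 (log2 fold change -0.50, SE 0.17, adjusted *p* = 0.0522 in edgeR), and passed with the block (-0.49, adjusted *p* = 0.00979 in edgeR). With upper-quartile scaling, *XBP1* had a log2 fold change of -0.15 (adjusted *p* = 0.482 in edgeR), and *ERN1* passed as higher (0.91, adjusted *p* = 0.0179 in edgeR). *ERN1* also passed with library totals (0.79, adjusted *p* = 0.034 in edgeR). It did so too with at least 10 counts required in every library (0.74, adjusted *p* = 0.0384 in edgeR), and passed in 5 of 14 alternatives. Counts per gene do not separate spliced from unspliced *XBP1*. *EIF2AK3* and *ATF6* had log2 fold changes of -0.13 (SE 0.20) and -0.22 (SE 0.15).

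In ERAD, *EDEM1*, which extracts misfolded glycoproteins from the folding cycle, had 76.1 and 41.8 CPM in BT-16 and 74.7 and 47.1 CPM in CHLA-266. It was the only 1 of 4 genes to pass (log2 fold change -0.76, SE 0.16, adjusted *p* = 0.00745 in edgeR), and did not with upper-quartile scaling (-0.42, adjusted *p* = 0.0609 in edgeR). *HERPUD1*, a membrane protein of the ERAD complex with both a CARE and an ERSE-II match, had 69.9 and 77.4 CPM in BT-16 and 47.0 and 66.5 CPM in CHLA-266 (log2 fold change 0.30, SE 0.21). The ubiquitin ligase *SYVN1* and its partner *SEL1L* had log2 fold changes of 0.12 (SE 0.19) and -0.30 (SE 0.15). The median of the 4 genes was -0.09.

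Of the ER chaperones, *CALR* (calreticulin) and *CANX* (calnexin) are sister lectins that hold unfinished glycoproteins. *CALR*, the most abundant of the 36 genes, had 1846 and 694 CPM in BT-16 and 1630 and 755 CPM in CHLA-266 (log2 fold change -1.26, SE 0.17, adjusted *p* = 0.00109 in edgeR). *CANX*, the membrane-bound sister, had 1177 and 936 CPM in BT-16 and 1286 and 1226 CPM in CHLA-266 (log2 fold change -0.19, SE 0.19, adjusted *p* = 0.451 in edgeR). *CANX* was the only ER chaperone that did not pass, and the levels of its treated and untreated libraries overlapped.

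*SDF2L1*, a partner of the HSP40 proteins of the ER, showed the greatest decrease of the 36 genes. Its count was 1775 before and 131 after treatment in BT-16, and 1256 before and 177 after treatment in CHLA-266, a reduction of 8.14-fold (log2 fold change -3.02, SE 0.31, adjusted *p* = 0.000224 in edgeR). *CRELD2* and *MANF*, which are retained in or secreted from the ER under stress, had log2 fold changes of -1.69 (SE 0.17) and -1.57 (SE 0.16). *CRELD2* had 91.3 and 27.9 CPM in BT-16 and 78.0 and 24.6 CPM in CHLA-266. *MANF* had log2 ratios of -1.57 in both lines.

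The disulfide isomerases *PDIA4* and *PDIA6* were reduced 2.83-fold and 2.56-fold (SE 0.17 for each on the log2 scale, adjusted *p* = 0.000381 and 0.000692 in edgeR). *PDIA4* had 977 and 320 CPM in BT-16 and 871 and 332 CPM in CHLA-266, and *PDIA6*, of whose exon length 25.2% overlaps *ATP6V1C2* on the opposite strand, had 518 and 177 CPM in BT-16 and 460 and 204 CPM in CHLA-266. *HYOU1*, a large chaperone of the HSP70 kind, had 569 and 236 CPM in BT-16 and 475 and 274 CPM in CHLA-266 (log2 fold change -1.03, SE 0.18, adjusted *p* = 0.00319 in edgeR). Of the 6 ER chaperones with an ERSE or ERSE-II match, all but *CANX* thus fell, and so did *PDIA4* and *MANF*, which had no match in this window. The median over the 8 genes was -1.43, and the same 7 of them passed as lower in every alternative.

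Between genes, levels can be compared only per length, as CPM per kilobase of exon. On that scale, *CALR* (620 before and 259 after treatment, means of 2 libraries) and *PDIA4* (280 before treatment, and 97.2 and 100.8 in the treated libraries of BT-16 and CHLA-266) were first and second of the 36 genes in both conditions, and *ASNS* (0.307 and 0.416) was last. Before treatment, *ATF4* ranked 4th at 107, close to *PDIA6* at 119, and after treatment it ranked 3rd at 79.1, close to *CANX* at 78.5. The length used is that of all annotated exons of a gene together, with 2613 bases for *ATF4* and 13764 bases for *CANX*. Ranks between genes therefore also depend on how many exons are annotated. *PPP1R15A* moved from rank 18 to 6 and *DDIT3* from 30 to 16. In the other direction, *SDF2L1* moved from rank 19 to 29 and *SLC7A5* from 11 to 20. The ranks of close neighbours such as *ERN1* and *VLDLR* (0.559 and 0.565 before treatment) do not differ beyond the spread of the libraries.

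**Figure D4:**
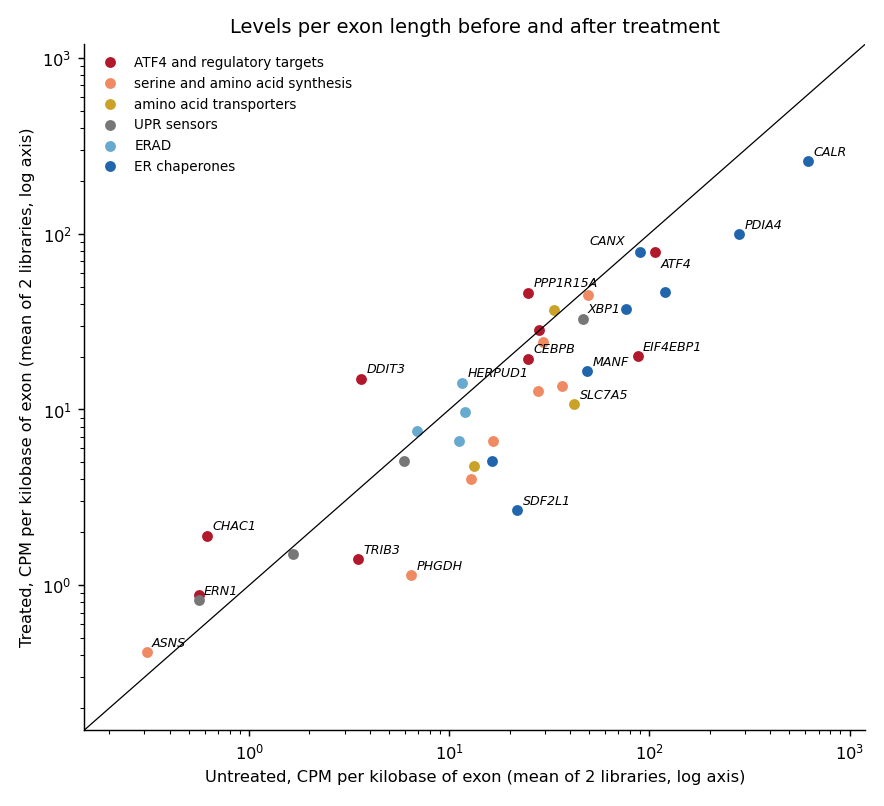
Level of each gene per kilobase of exon (CPM per kilobase, mean of 2 libraries, log axes) before (x axis) and after treatment (y axis), colored by role, with the diagonal as the line of equal levels. *DDIT3*, *CHAC1*, and *PPP1R15A* lie above the diagonal, and *SDF2L1*, *PHGDH*, and *EIF4EBP1* lie farthest below it.

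Within each cell line, the interval of the ratio covers counting error only, and leaves out the error of culture, library, and scaling. The 95% intervals (Clopper-Pearson) lay above 0 for 7 and below 0 for 25 of 36 genes in BT-16, and above 0 for 9 and below 0 for 24 genes in CHLA-266. Of the 12620 genes that had 10 or more counts in each library, a closer match in depth than all genes tested, 33% lay above and 55.2% below 0 in BT-16, and 36.6% above and 50.9% below 0 in CHLA-266. The sign was the same in both lines for 34 of the 36 genes (94.4%), for all 20 that passed the test, and for 83.7% of those 12620 genes. The intervals of the lines did not overlap for 28 of the 36 genes (77.8%), against 57% of the 12620 genes. With halved counts, as would apply if both reads of a pair were counted, this was so for 24 of the 36 genes (66.7%), against 43.2%. Such intervals narrow with depth, and the part of depth in these differences was not tested. *SDF2L1* had an interval of -3.77 to -3.25 in BT-16 and of -2.82 to -2.36 in CHLA-266 on the log2 scale, and *PHGDH* of -2.87 to -2.63 in BT-16 and of -2.33 to -2.06 in CHLA-266. In *SLC7A5*, the order of the lines was the other way round, with an interval of -1.81 to -1.70 in BT-16 and of -2.26 to -2.13 in CHLA-266. With 1 library for each line and condition, whether the lines differ in their response could not be tested against the spread of replicates.

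Between the cell lines, with the treatment in the model, none of the 36 genes passed the test (CHLA-266 against BT-16, edgeR), while 2.30% of all genes did. Of the 36 genes, 4 had an unadjusted *p* value under 0.05 in edgeR, 2 in DESeq2, and 0 in limma, and the smallest adjusted *p* value was 0.275 in edgeR. With other scalings in edgeR it was 0.0634 (library totals), 0.0836 (size factors of DESeq2), and 0.111 (upper quartile), and none of the 36 genes passed. The widest log2 differences, CHLA-266 minus BT-16, were -0.75 for *VLDLR* and -0.75 for *CHAC1*. *HERPUD1* had a log2 difference of -0.40 (adjusted *p* = 0.281 in edgeR) and *PYCR1* of -0.36 (adjusted *p* = 0.492 in edgeR).

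Genes of the same pathways beyond these 36 were read from the same fit, as lists of 137 genes of which 134 were measured. Of these, 15 were higher and 49 lower (11.2% and 36.6%), with a median log2 fold change of -0.27. Over all genes tested, 16.1% were higher and 19.1% lower, with a median of 0.24. These shares of all genes also stand beside the counts of each list below. With upper-quartile scaling, the split was 35 higher and 21 lower (62.5% of the calls higher, against 23.4%). Over all genes tested, 69.7% of the calls were higher with that scaling, against 45.7% with TMM. Whether more of these genes rose or fell thus rests on the scaling. Their median lay below that of all genes in both, at 0.075 against 0.59 with the upper quartile and at -0.27 against 0.24 with TMM. Without the untreated BT-16 library, the median of these genes was -0.26, against 0.29 over all genes tested. Without the untreated CHLA-266 library, it was -0.23, against 0.22.

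Of 21 other targets of *ATF4*, 6 rose and 4 fell, with a median of 0.57, above that of all genes. *GDF15*, a secreted stress hormone, had 36.5 and 120 CPM in BT-16 and 26.3 and 109 CPM in CHLA-266 (log2 fold change 1.87, SE 0.20, adjusted *p* = 0.000273 in edgeR). *ATF3*, a transcription factor next in line after *ATF4*, had 13.3 and 42.2 CPM in BT-16 and 15.1 and 50.5 CPM in CHLA-266 (log2 fold change 1.71, SE 0.20). *SLC7A11*, the cystine importer, had 345 and 523 CPM in BT-16 and 313 and 646 CPM in CHLA-266 (log2 fold change 0.83, SE 0.18, adjusted *p* = 0.00849 in edgeR), but did not pass without the untreated CHLA-266 library (adjusted *p* = 0.0544 in edgeR). The alanine transaminase *GPT2* (-0.94) and the tRNA exporter *XPOT* (-0.83) fell, *GPT2* not without the untreated BT-16 library (adjusted *p* = 0.0508 in edgeR) and *XPOT* not without the untreated CHLA-266 library (adjusted *p* = 0.0614 in edgeR) or with upper-quartile scaling (adjusted *p* = 0.0685 in edgeR).

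Of 13 aminoacyl-tRNA synthetases listed as targets of *ATF4*, 4 fell, among them *LARS1* (-0.72) and *MARS1*, and of 7 other synthetases 5 fell, with *FARSB* (-1.61) and *KARS1* (-0.83) at the front. *LARS1* did not pass without the untreated CHLA-266 library (adjusted *p* = 0.0575 in edgeR), nor *MARS1* without the untreated BT-16 library (adjusted *p* = 0.0786 in edgeR) or with library totals (adjusted *p* = 0.0585 in edgeR). With upper-quartile scaling neither passed (adjusted *p* = 0.0964 and 0.134 in edgeR). Among 10 enzymes of folate metabolism, 3 rose and 4 fell. The cytosolic *SHMT1* fell even more than its mitochondrial relative *SHMT2*, from 46.1 to 3.84 CPM in BT-16 and from 40.9 to 6.58 CPM in CHLA-266 (log2 fold change -3.06, SE 0.29, adjusted *p* = 0.000142 in edgeR), and *MTHFD1L* had a log2 fold change of -1.37. The formyltetrahydrofolate dehydrogenases passed as higher, with a log2 fold change of 1.23 for *ALDH1L2*. *ALDH1L1* had 5 and 10 counts in the untreated libraries of BT-16 and CHLA-266 and 216 and 149 counts in the treated ones. Per kilobase of exon, its counts lay below the 95th percentile of olfactory receptors in every library. Whether its rise exceeds that of the silent genes was not tested. Of 12 genes of the eIF2 machinery and its kinases, 7 fell, with *PPP1R15B* (-0.99), the constitutive relative of *PPP1R15A*, first and *EIF2A* (-0.82), which does not encode eIF2α, second. The 2 relatives therefore moved in opposite directions.

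Of 22 other ER chaperones and oxidoreductases, 3 rose and 7 fell. *HSPA5* encodes BiP, the chaperone that holds the UPR sensors inactive, and had 796 and 441 CPM in BT-16 and 839 and 557 CPM in CHLA-266 (log2 fold change -0.71, SE 0.18, adjusted *p* = 0.0166 in edgeR). It did not pass with upper-quartile scaling (-0.37, adjusted *p* = 0.115 in edgeR), without the untreated BT-16 library (adjusted *p* = 0.0502 in edgeR), or without the untreated CHLA-266 library (adjusted *p* = 0.0704 in edgeR). *HSP90B1*, or GRP94, had a log2 fold change of -1.03 (SE 0.18) and *PDIA3* of -0.91 (SE 0.16). In contrast, *DNAJB9*, a cochaperone of BiP and known target of XBP1, rose from 14.8 to 45.03 CPM in BT-16 and from 18.3 to 38.6 CPM in CHLA-266 (log2 fold change 1.34, SE 0.20, adjusted *p* = 0.00172 in edgeR), and *SIL1* rose by 0.68, though not without the untreated CHLA-266 library (adjusted *p* = 0.12 in edgeR).

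Of 23 other ERAD genes, *MAN1B1* (0.64) rose and 6 fell, with *DERL2* (-0.78) and *HERPUD2* (-1.02) as examples, and of 17 genes of the ER translocon 9 fell, led by *SPCS2* (-1.10) and *SRP9* (-0.99). Of 9 genes that process or relate to the UPR sensors, *CREB3* (1.14) and *CREB3L1* rose, the latter from 3 counts in each untreated library to 70 and 36 counts, and *TRAF2* (-1.51) and *CREB3L2* (-0.59) were among the 3 that fell. The counts of *CREB3L1* are too low for a fold change. Per kilobase of exon, they lay below the 95th percentile of olfactory receptors in every library. Without the untreated CHLA-266 library, *MAN1B1*, *DERL2*, *HERPUD2*, and *CREB3L2* did not pass (adjusted *p* = 0.146, 0.0521, 0.0742, and 0.114 in edgeR), and without the untreated BT-16 library, *CREB3L1* and *CREB3L2* did not (adjusted *p* = 0.0506 and 0.0753 in edgeR). *CREB3L1* also did not pass without the treated BT-16 library (adjusted *p* = 0.151 in edgeR). With upper-quartile scaling, *DERL2*, *HERPUD2*, and *CREB3L2* did not pass (adjusted *p* = 0.0738, 0.0588, and 0.261 in edgeR), and *CREB3L2* also did not with library totals (adjusted *p* = 0.113 in edgeR).

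**Figure D5:**
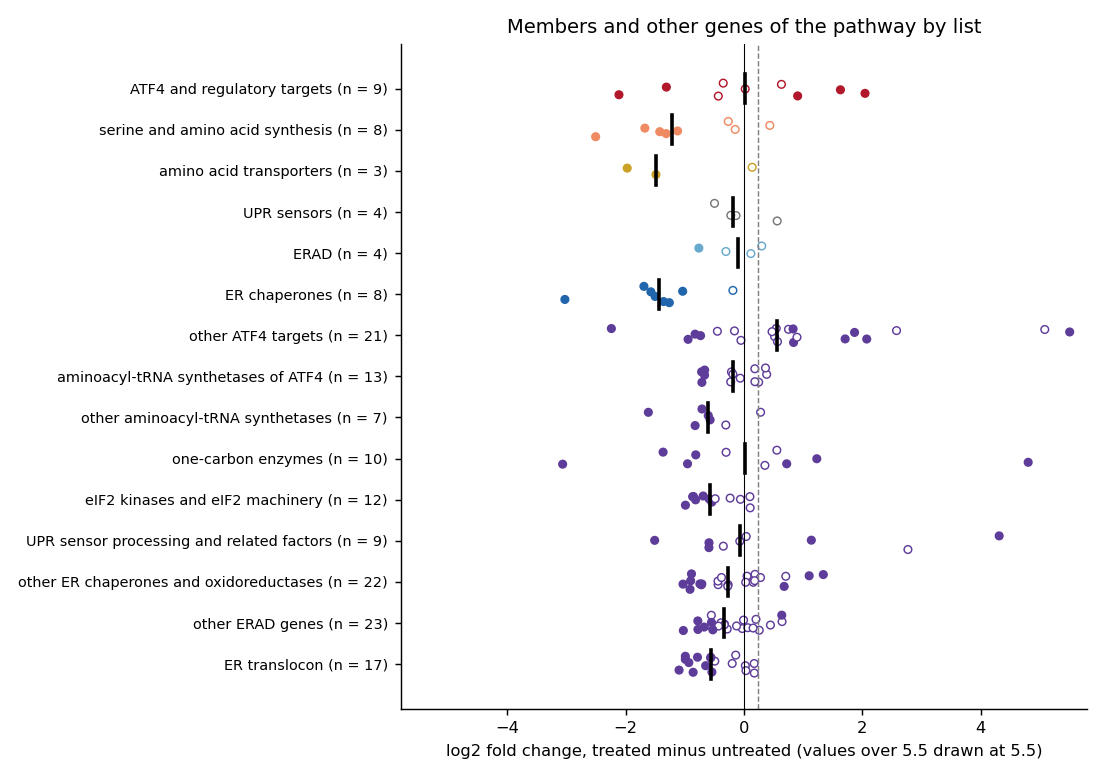
Log2 fold change of treated against untreated cells (edgeR, both cell lines) for the 36 genes in their 6 groups and for 134 other genes of the pathways in 9 lists. Each point is a gene (filled: adjusted *p* value under 0.05), black bars are list medians, the dashed line is the median of all genes at 0.24, and 1 target of *ATF4* that had no counts in either untreated library is drawn at the right edge. The medians of ER chaperones (-1.43), serine and amino acid synthesis (-1.22), and amino acid transporters (-1.49) lie farthest to the left.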

How the data were processed

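RNA of 4 libraries was extracted with Trizol and built with a stranded kit from small amounts of RNA. The authors demultiplexed the reads with bcl2fastq 2.20, trimmed them, aligned them to hg38 with STAR (version not given in the sources used here), counted them per gene, and removed genes of sex chromosomes. The deposited estimated counts are read counts per symbol without normalization, and 5 values of 2 genes that were not whole were rounded first. The deposited log2 values were made by the authors with the variance-stabilizing transformation of DESeq2, and were used in limma alone. Whether counting used strand or counted both reads of a pair is not stated.

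Of 18449 symbols, 383 had a total of 0, which left 18066 for edgeR 4.0.16 in R 4.3.3 (quasi-likelihood test, TMM, Benjamini-Hochberg adjustment over all of them, no cell line term, threshold 0.05). Standard errors are the log2 fold change divided by the square root of F. The libraries of a line are paired by the line. As a check, deviations of paired libraries from the mean of their condition correlated with r = 0.263 over 12620 genes, and the line as a block was an alternative. Between lines, the treatment stayed in the model. Ratios within a line used 0.5 added counts and exact Clopper-Pearson 95% intervals, which cover counting error only. The code of the tests was first run on simulated counts with known changes. Alternatives were DESeq2 1.42.0 with and without the block, limma 3.58.1, 3 other scalings, 2 filters, a fold threshold of 1, and each library left out. Exon lengths and overlaps come from GENCODE 44, promoters from RefSeq. The 36 genes and all lists were chosen with earlier results of these data known. Named were all 36, the 2 top genes by adjusted *p* value among those called higher and among those called lower in each other list, and *HSPA5*, *HSP90B1*, *DNAJB9*, *ATF3*, and *SLC7A11*. *SLC7A3*, *MBTPS2*, and *SSR4* were not analysed here. No column was left unused.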

Additional observations from a re-analysis of the deposited data

Results flagged for a closer look

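*CEBPB* had ratios of opposite sign in the cell lines. Its log2 ratio of treated to untreated cells was 0.086 in BT-16 (95% interval 0.01 to 0.16 for counting error) and -0.85 in CHLA-266 (95% interval -0.94 to -0.76), from 1 library for each line and condition. With halved counts, the interval in BT-16 was -0.025 to 0.196 and held 0, so the sign in BT-16 is not settled. The difference between the lines was not tested. Without the treated BT-16 library, *CEBPB* passed the threshold (log2 fold change -0.71, adjusted *p* = 0.0122 in edgeR).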

How the results depend on the processing

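Of the 36 genes, 25 kept their call in every alternative, and 17 of the 20 that passed did so in all alternatives other than the fold threshold, with *EDEM1*, *TRIB3*, and *CHAC1* as the exceptions. Upper-quartile scaling raised the number of higher genes to 6 of 36 and to 1 of 12 in the ER folding arm, moved the medians to -0.043 (*ATF4* arm) and -0.80 (ER folding arm), gave 35 higher and 21 lower of the other 134 genes, and put 16 intervals above 0 in BT-16 and 16 in CHLA-266. *ALDH18A1*, *ATF6*, *CANX*, *CEBPB*, *EIF2AK3*, *PSPH*, and *SEL1L*, none of which passed, took a positive sign under it or under library totals. With library totals, the *ATF4* arm had a median of -0.16 and the other genes 23 higher and 29 lower. Over all genes tested, the share of calls that were higher was 45.7% with TMM, 61.0% with library totals, and 69.7% with upper-quartile scaling. The filter of at least 10 counts in every library moved the median of the *ATF4* arm to -0.21. DESeq2 with the block gave 23 other genes higher. The fold threshold left 8 other genes lower and took the calls of *PPP1R15A* and *EDEM1*. Leaving out each library in turn gave 2 to 4 of 36 genes higher and 16 to 18 lower, medians of -0.53 to -0.36 (*ATF4* arm) and -1.25 to -1.03 (ER folding arm), and 10 to 16 higher and 28 to 50 lower among the other 134. Except for the scaling, the cause of these shifts was not tested. The cell line as a block changed the calls of *ATF4*, *XBP1*, and *VLDLR* only, and 33 of 36 stayed as they were. The comparison of the lines without 1 library was not run, since the additive model then has no residual degrees of freedom. With 2 libraries on each side, genes that did not pass are not shown to be unchanged.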
